A study of Mus musculus with 9 samples.

Results

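The genes described here are 32 genes of protein folding and stress signalling in the endoplasmic reticulum (ER), taken by name from a table of 26157 genes. They comprise 5 chaperones, 5 disulfide isomerases, 6 J proteins and small cofactors, and 6 genes of ER-associated degradation. Another 4 encode parts of the protein-conducting channel (translocon), of a complex associated with it, and the signal peptide peptidase. The rest are 4 sensors and transcription factors and 2 outputs of the PERK branch. Symbols matched 31 of the 32, and Hm13 was found under its other symbol, H13. All 32 were above 7 TPM (a level scaled to the library total and to transcript length) in all 9 libraries, and all 32 entered the tests.

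Poly-A RNA had been sequenced from J774A.1, a mouse macrophage line, in 3 groups of 3 libraries. Control cells were grown without added agents, M2 cells were given IL-4 and IL-13 at 10 ng/mL each, and Q11 cells were given Q11 at the same time as IL-4 and IL-13. IL-4 and IL-13 are the cytokines used to turn macrophages to the alternatively activated (M2) state, and the series title presents Q11 as a compound that inhibits CYP2E1, a cytochrome P450, and that acts on this polarization in the setting of liver cancer. The sources used here do not give the dose of Q11, the cytokine dose in the Q11 cells or the length of treatment. Nothing in the labels ties the 3 libraries of a group to separate cultures, and the p-values measure only their spread, which may be technical.

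The ER folds and glycosylates proteins that will be secreted or placed in membranes, and in macrophages it handles surface receptors, lysosomal enzymes and secreted factors. When unfolded proteins build up, 3 membrane sensors respond, namely IRE1 (Ern1), PERK (Eif2ak3) and ATF6 (Atf6). IRE1 splices the Xbp1 message into one that encodes an active transcription factor, ATF6 is cut in the Golgi to release its own transcription factor, and PERK slows translation while favouring ATF4 and CHOP (Ddit3). XBP1 and ATF6 then raise chaperones, isomerases and degradation factors, partly through the ER stress element (ERSE) in promoters.

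Of 5 M2 markers, Mgl2 and Mrc1 were well above 1 TPM in every library. Mgl2, a lectin induced by IL-4, was at 130 to 134 TPM in control and 911 to 1091 TPM in M2 libraries, and Mrc1 (CD206) was at 19.1 to 20.4 and 85.8 to 89.2 TPM. Arg1 was at 0.0919 to 0.444 and 1.63 to 6.20 TPM, Chil3 was under 1 TPM in all 9 libraries, and Retnla was listed at 0 in all but M2 replicate 2 (0.357 TPM). In Q11 libraries Mgl2 was at 929 to 986, Mrc1 at 81.1 to 87.3 and Arg1 at 1.02 to 3.07 TPM. The 8 macrophage markers were all present, with summed levels of 12100 to 12600 TPM in control, 7830 to 8440 in M2 and 8200 to 8250 in Q11 libraries. Lyz2 was at 6698 to 7140 TPM in control and 3343 to 3766 TPM in M2 libraries. Cd14, Mpeg1 and Itgam were also lower in every M2 library than in any control library. Cd68 (2525 to 2591 and 2552.5 to 2653 TPM), Csf1r, Adgre1 and Fcgr1 overlapped between control and M2. Of the markers of other cell types, 9 had a row, summing to 17.8 to 21.1, 19.4 to 23.2 and 20.8 to 22.2 TPM, and only Ighm, Sdc1 and Cdh5 reached 1 TPM in any library. The part of these shifts in the results below was not tested. In 8 libraries 15815847 to 17095787 reads could be recovered from the TPM, and Q11 replicate 2 held 32193523. That library had fewer reads than Q11 replicate 3 in 11 of 19252 genes, against 1929 to 2413 genes when set against each other library, so it appears to hold the reads of Q11 replicate 3 beside its own. The members' calls and counts are therefore given also after those reads were subtracted, which left it 15336276 reads ("shared reads separated").

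Many of these genes are known targets of ATF6 and XBP1 through the ERSE, so the promoter sequences are shown before the values. The motif was searched as CCAAT, any 9 bases and CCACG on both strands of RefSeq promoter windows (GRCm38.p6, 250 bases before to 50 after each gene's start), of which 28 belonged to 27 of the 32 genes. Atf6, Derl1, Hyou1, Manf and Sec61a1 had no window. The motif stood in 8 of the 28 windows (28.6%), those of Hspa5, Hsp90b1, Calr, Canx, Pdia6, Dnajc3, Creld2 and Syvn1, and in 39 of all 32851 windows (0.119%). The promoters of the 3 genes that were called higher in M2 cells, and of Hspa5, the classical ERSE gene, are shown next. Each covers the 150 bases before the RefSeq start, on the gene's strand. Capitals mark the ERSE, or in Pdia4, which held no complete ERSE, a site with 1 change from it.
Hspa5: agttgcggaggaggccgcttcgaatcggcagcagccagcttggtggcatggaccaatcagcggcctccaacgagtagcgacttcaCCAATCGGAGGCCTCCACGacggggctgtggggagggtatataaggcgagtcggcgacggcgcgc
Pdia4: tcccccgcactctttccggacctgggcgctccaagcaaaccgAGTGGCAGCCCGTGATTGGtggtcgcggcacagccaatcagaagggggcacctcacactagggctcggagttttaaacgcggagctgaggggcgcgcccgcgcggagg
Creld2: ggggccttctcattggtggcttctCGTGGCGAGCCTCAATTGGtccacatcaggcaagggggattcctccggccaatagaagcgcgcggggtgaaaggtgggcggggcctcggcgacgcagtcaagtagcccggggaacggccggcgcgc
Syvn1: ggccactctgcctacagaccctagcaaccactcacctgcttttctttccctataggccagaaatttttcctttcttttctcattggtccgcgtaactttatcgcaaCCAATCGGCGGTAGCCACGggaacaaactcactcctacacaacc

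These windows lie at chr2:34771940-34772089 on the plus strand for Hspa5, chr6:47813513-47813662 on the minus strand for Pdia4, chr15:88819496-88819645 on the plus strand for Creld2 and chr19:6046426-6046575 on the plus strand for Syvn1. In Hspa5 and Syvn1 the ERSE reads along the gene's strand, at bases -65 to -47 and -44 to -26 from the start, and in Creld2 it reads on the opposite strand at -126 to -108. Pdia4 held no complete ERSE. Its capitals mark a site on the opposite strand at -108 to -90 with 1 change, G19T, counted from 1 at the motif's first C.

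The other ERSE genes are shown with 30 bases on each side of the site, so that the fixed ends of the motif can be compared across the group while the 9 bases between them vary.
Hsp90b1, distal site: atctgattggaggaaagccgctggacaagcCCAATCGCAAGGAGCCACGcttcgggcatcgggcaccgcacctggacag
Hsp90b1, proximal site: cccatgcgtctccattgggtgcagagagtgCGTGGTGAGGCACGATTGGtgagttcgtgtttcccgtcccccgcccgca
Calr: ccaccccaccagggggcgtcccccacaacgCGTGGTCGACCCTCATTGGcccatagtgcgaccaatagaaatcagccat
Canx: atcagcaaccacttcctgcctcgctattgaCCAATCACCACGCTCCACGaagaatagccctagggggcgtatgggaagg
Pdia6: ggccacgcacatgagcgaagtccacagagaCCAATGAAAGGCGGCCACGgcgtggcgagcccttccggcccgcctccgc
Dnajc3: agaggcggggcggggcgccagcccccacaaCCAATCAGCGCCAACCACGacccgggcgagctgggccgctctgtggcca

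They lie at chr10:86705608-86705686 and chr10:86705503-86705581 (Hsp90b1, minus strand), chr8:84847045-84847123 (Calr, minus), chr11:50325770-50325848 (Canx, minus), chr12:17266461-17266539 (Pdia6, plus) and chr14:118937797-118937875 (Dnajc3, plus). With up to 1 change in the 10 fixed letters, the motif stood in 14 of the 28 windows (50%) and in 494 of all windows (1.5%). That search, added after the data had been seen, brought in Pdia4 (G19T), Pdia3, Derl2 and Herpud1 (each G19A), Sel1l (C18T) and Ddit3 (C15G), with positions counted as for Pdia4.

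Herpud1, which encodes a membrane scaffold of the degradation complex and is known to answer to both ATF6 and PERK signalling, held the shorter element ERSE-II (ATTGG, any base, CCACG), here in capitals at -52 to -42, chr8:94386347-94386417 on the plus strand.
Herpud1: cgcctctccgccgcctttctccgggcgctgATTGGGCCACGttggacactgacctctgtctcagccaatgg

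ERSE-II was found in 1 other window of the group, that of Dnajb11 at 8 to 18 bases after the start, which makes 7.14% of the 28 windows against 0.0365% of all. The ATF4 type composite site TTGCATCA stood in Herpud1 alone (3.57% against 0.895% of all windows). The XBP1 element UPRE, TGACGTGG, was found in none of the 28 windows and in 222 of all (0.676%). A match describes letters only, and none of these files measured binding.

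**Figure D1:**
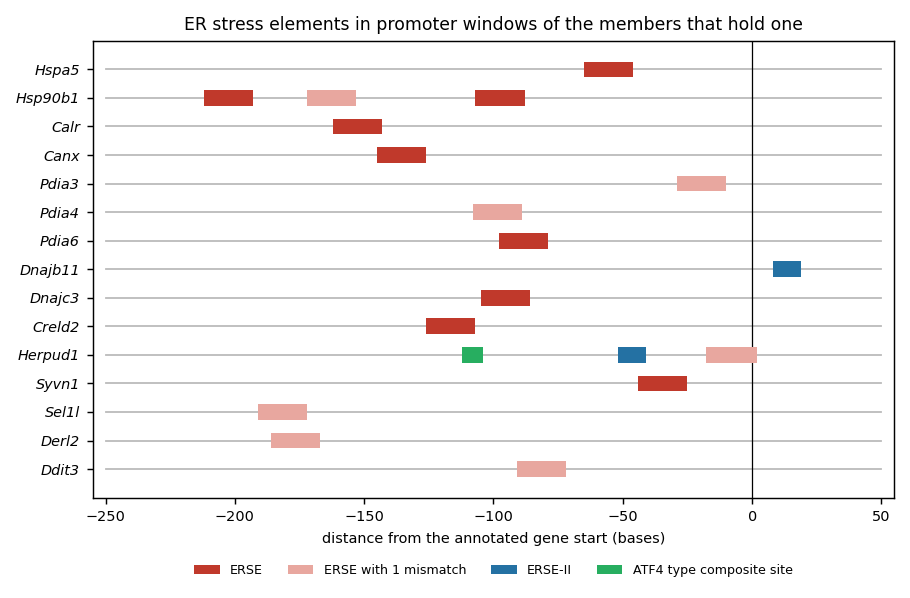
Positions of the ER stress motifs in the promoter windows of the genes that hold one, as distance in bases from the RefSeq gene start (vertical line at 0). The complete ERSE (red) lay between 212 and 26 bases before the start in 8 genes, and Hsp90b1 held it at 2 places.

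The levels of the 32 genes spanned more than 2 orders of magnitude and differed little between the groups. The highest was Calr, at 1807 to 1982 TPM over the 9 libraries and rank 49 of all genes, followed by Hspa5 (rank 83) and P4hb (rank 116). The lowest was Pdia5, at 7.06 to 10.8 TPM. Together the 32 genes held 1.02 to 1.04% of all TPM in control, 1.05 to 1.09% in M2 and 1.05 to 1.07% in Q11 libraries. In bulk RNA, a different number of cells of one kind and a different amount of RNA per cell cannot be told apart. Between libraries of 1 group the median coefficient of variation of the 32 genes was 2.58% in control, 4.07% in M2 and 1.91% in Q11, against 4.64%, 5.34% and 3.66% over the 10102 genes of at least 5 TPM. In the Q11 group, replicates 2 and 3 share reads.

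**Figure D2:**
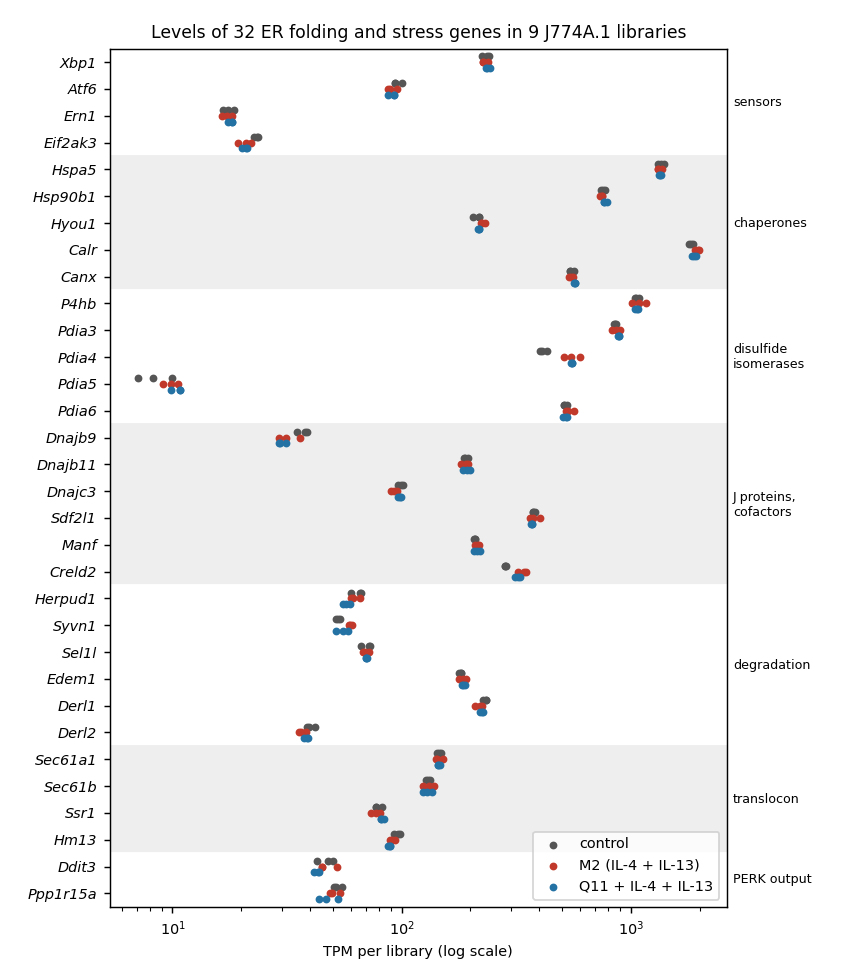
Level of each of the 32 genes in each library (1 point per library, TPM on a log scale), with control in grey, M2 in red and Q11 in blue, ordered by role. The groups lie on top of each other for most genes, while for Pdia4 the 3 control points, at 403 to 429.5 TPM, stand apart from all 6 cytokine-treated points.

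The first comparison addressed the cytokines alone. In M2 cells 3 of the 32 genes were higher than in control (Pdia4, Creld2 and Syvn1) and 0 were lower, which is 9.38% of the group, while 12.6% of all 14207 genes tested were called (6.88% higher, 5.75% lower). At an unadjusted p under 0.05 there were 10 of the 32 (31.2%), against 26.1% of all genes. The test was limma's moderated test on log2(TPM + 1), a scale that understates changes of low genes, with Benjamini-Hochberg adjustment over all genes and a threshold of 0.05. With shared reads separated, 2 of the 32 were called (Pdia4 and Creld2), against 9.34% of all genes. The median difference of the group was -0.01 (log2), and the median absolute difference was 0.04, against 0.12 over all genes tested. That figure includes genes under 5 TPM, and none was computed for genes matched to the group's levels. For 29 of the 32 genes (90.6%) the 95% interval of the difference lay within 1.25-fold either way, a band chosen after the values were seen, against 49.5% of all genes tested and 68.8% of those of at least 5 TPM. The 3 with a wider interval were Pdia4, Pdia5 and Dnajb9, and the count was 28 with shared reads separated, against 48.1% of all genes.

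Among the sensors, no gene passed the test. Ern1, the kinase and RNase that splices Xbp1, was at 17.4, 16.6 and 18.5 TPM in control and 18.1, 17.2 and 16.4 TPM in M2 libraries. Xbp1 itself was at 242, 226 and 236 TPM in control and 226, 226 and 237 TPM in M2 libraries, a difference of -0.03 (95% interval -0.10 to 0.05). Both genes overlapped between groups, and gene-level TPM do not separate spliced from unspliced Xbp1. Eif2ak3, the kinase PERK, was at 22.8, 23.4 and 23.6 TPM in control and 21.9, 19.4 and 21 TPM in M2 libraries. Its M2 values all lay below control, by -0.16 (-0.28 to -0.04), with limma's adjusted p = 0.0847. An antisense gene, Gm43292, covers part of its exons (8.05%), and the sources used here do not say whether counting used strand. Atf6, the membrane-bound transcription factor, was at 93.2 to 100.1 TPM in control and 87.3 to 95.7 TPM in M2 libraries, with overlap.

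The chaperones were the most abundant role, and none passed the test. Hspa5, the Hsp70 chaperone BiP that also holds the sensors inactive, was at 1394, 1364 and 1314 TPM in control and 1313, 1317 and 1367 TPM in M2 libraries. The groups overlapped, and the difference was -0.03 (-0.09 to 0.04), so the interval left room for a rise of at most 1.027-fold on this scale. Hsp90b1, the ER form of Hsp90, differed by -0.02, and Canx, the membrane-bound lectin chaperone calnexin, by -0.01. Hsp90b1 shares 15.7% of its exon bases with other annotated genes, 1 of them antisense. Calr, the soluble lectin chaperone calreticulin, was at 1843, 1873 and 1807 TPM in control and 1970.5, 1917 and 1982 TPM in M2 libraries. Every M2 library was above every control library, by 0.09 (0.03 to 0.15), with an adjusted p of 0.0598 from limma. It was called in 4 of 19 alternative analyses, among them limma-voom on the recovered reads (adjusted p = 0.014). Hyou1, the large Hsp70 that recharges BiP with ATP, likewise did not overlap, at 206 to 219 TPM in control and 223 to 231 TPM in M2 libraries (0.08, adjusted p = 0.112).

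Of the disulfide isomerases, which form and reshuffle disulfide bonds, Pdia4 rose and the other 4 did not pass the test. Pdia4, also known as ERp72, lies on chromosome 6 (GRCm38, chr6:47796141-47813430, minus strand; identifier ENSMUSG00000025823). It was at 429.5, 412 and 403 TPM in control, 551, 509.6 and 602 TPM in M2 and 556, 555 and 552 TPM in Q11 libraries. All 6 libraries given cytokines lay above all 3 control libraries, as in the plot of values per library. The mean rose from 415 ± 13.6 to 554 ± 46.0 TPM (SD, n = 3 each), by 0.41 on the log2 scale (0.29 to 0.53), or 1.336-fold, and this was the largest difference among the 32 genes. limma's adjusted p was 0.00141, and Pdia4 was called in 19 of 19 alternatives. Without M2 replicate 3, the highest library, the rise was 0.35 (adjusted p = 0.00152). P4hb, the founding protein disulfide isomerase, was at 1053, 1047 and 1090.4 TPM in control and 1089.5, 1016 and 1166 TPM in M2 libraries, with overlap. Pdia3 (ERp57, the partner of calnexin and calreticulin) differed by 0.01, Pdia6 (P5) by 0.06 and Pdia5 by 0.21, all overlapping between groups. Pdia5 was the least precise of the 32, with an interval of -0.04 to 0.46. M2 replicate 3 held the highest value of the M2 libraries for P4hb, Pdia3, Pdia4 and Pdia6. The isomerases together made 0.286% of TPM in every control library, 0.292 to 0.324% in M2 and 0.301 to 0.306% in Q11 libraries.

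**Figure D3:**
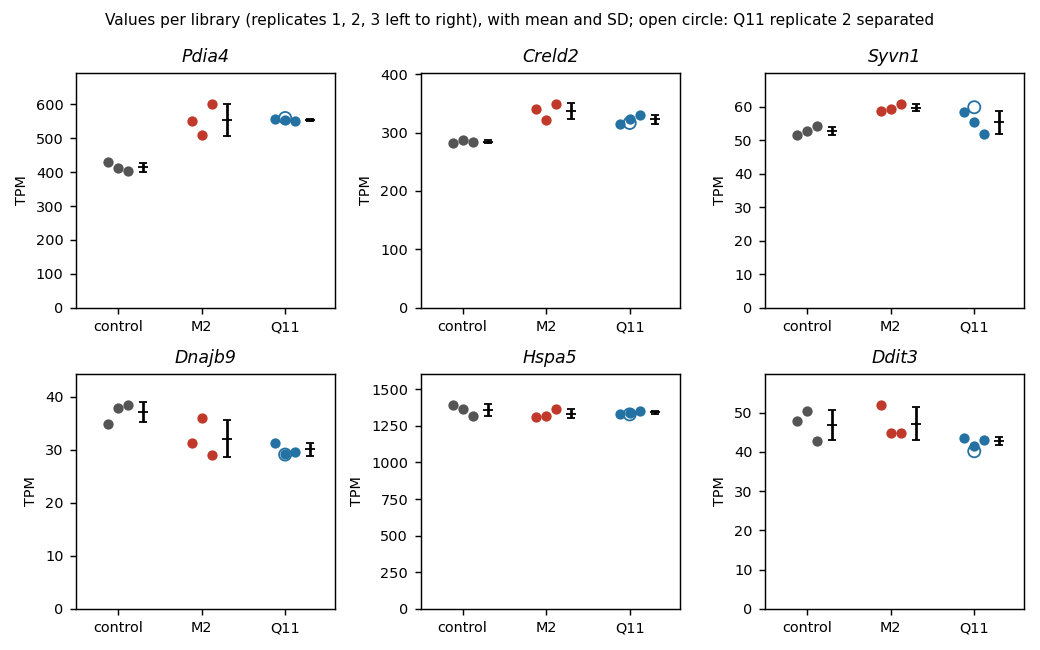
TPM of 6 of the genes in each library (points, replicates 1 to 3 from left to right in each group) with the group mean and SD beside them. An open circle gives Q11 replicate 2 with shared reads separated. Pdia4 and Creld2 are above control in all 6 cytokine-treated libraries, Hspa5 and Ddit3 overlap between control and M2, and in Syvn1 the Q11 libraries spread from 51.8 to 58.5 TPM.

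The J proteins pass unfolded clients to BiP and speed its ATPase, and here the call was made by Creld2. Creld2, an ER stress-inducible protein of the ER lumen that can be secreted, lies at chr15:88819646-88826683 on the plus strand (ENSMUSG00000023272). It was at 283, 287 and 284 TPM in control and 341, 322 and 349 TPM in M2 libraries, with no overlap. The rise was 0.24 (0.17 to 0.32), or 1.185-fold, with limma's adjusted p = 0.00206 (0.00319 with shared reads separated), and it was called in 19 of 19 alternatives. Dnajb9 (ERdj4), a J protein that keeps IRE1 in check and is itself a target of XBP1, stood at 34.9, 37.8 and 38.5 TPM in control and 31.2, 35.9 and 29.1 TPM in M2 libraries. M2 replicate 2 lay within the control range, and the difference of -0.21 (-0.38 to -0.04) had an adjusted p of 0.113. Without that library it was -0.29 with an adjusted p of 0.0189, and without M2 replicate 3, the lowest, it was -0.14 with an adjusted p of 0.273. Dnajc3 (p58IPK) was lower in every M2 library than in any control library, at 90.1 to 95.7 against 96.2 to 101 TPM, and did not pass (-0.09, adjusted p = 0.117). Dnajb11 (ERdj3), Sdf2l1, which works with ERdj3, and Manf, a secreted BiP-binding protein, differed by -0.02, 0.01 and 0.03 and overlapped.

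In ER-associated degradation, Syvn1 was called in the fit of all 9 libraries as deposited. Syvn1 is the ubiquitin ligase HRD1, which marks misfolded proteins for the proteasome, and lies at chr19:6046576-6053712 on the plus strand (ENSMUSG00000024807). It was at 51.6, 52.7 and 54.1 TPM in control and 58.7, 59.4 and 60.8 TPM in M2 libraries, with no overlap. The rise of 0.17 (0.07 to 0.28), or 1.130-fold, had an adjusted p of 0.0378 in limma. The call was lost with shared reads separated (limma's adjusted p = 0.0786), without Q11 replicate 2 (0.0668) and without any 1 control or M2 library (0.063 to 0.117). It was also lost with no filter on low values (0.0644) and with quantile normalization (0.0669). Separation altered only Q11 replicate 2, so the difference between M2 and control stayed at 0.17 in that fit. The call held in 7 of 19 alternatives. Among them were limma on only the 2 groups compared (adjusted p = 0.0351) and limma-voom on recovered (0.0147) and separated reads (0.0307). The antisense gene Mrpl49 covers 1.87% of its exon bases. Sel1l, the adaptor that holds Syvn1 in its complex, was at 66.8 to 72.5 TPM in control and 67.6 to 72.0 TPM in M2 libraries, a difference of -0.02. Edem1, which hands misfolded glycoproteins to degradation, differed by 0.04 and Herpud1 by -0.04, both with overlap. The derlins, which help move clients out of the ER, lay lower without overlap, Derl1 at 226 to 235 against 209 to 224 TPM (-0.09) and Derl2 at 38.6 to 41.8 against 35.5 to 38.3 TPM (-0.12). Neither passed the test (adjusted p = 0.115 and 0.133).

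The genes of the translocon and signal peptide peptidase, and the PERK outputs, did not pass either. Sec61a1, the pore of the translocon, and Sec61b, its small subunit, both differed by 0.00. Ssr1, a subunit of the translocon-associated TRAP complex, differed by -0.04, and Hm13, the signal peptide peptidase, by -0.07. Ddit3, the transcription factor CHOP induced late in ER stress, was at 47.8, 50.3 and 42.7 TPM in control and 52.0, 44.9 and 44.8 TPM in M2 libraries. The groups overlapped, and the difference was 0.01 (-0.15 to 0.17). Ppp1r15a, the GADD34 subunit that reverses PERK's mark on eIF2α, was at 54.7, 51.0 and 51.7 against 53.8, 48.9 and 49.6 TPM, a difference of -0.05. Ddit3 shares 10.9% of its exon bases with 3 other annotated genes. These are Gm4189 and Mars, both antisense, and another gene annotated as Ddit3 on the same strand.

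Counted by overlap alone, 9 of the 32 genes (28.1%) had M2 and control libraries that did not overlap, 5 higher and 4 lower, against 28.4% of all genes tested (14.5% higher, 13.9% lower). The 5 were Hyou1, Calr, Pdia4, Creld2 and Syvn1, and the 4 were Dnajc3, Eif2ak3, Derl1 and Derl2. The 8 genes with a complete ERSE differed by -0.09 to 0.24 between M2 and control, with a median of 0.03, and 2 of them were called (Creld2 and Syvn1, of which Syvn1 was not with shared reads separated), beside 12.6% of all genes. The 19 with a window but no complete ERSE differed by -0.21 to 0.41, with a median of -0.02, and 1 was called.

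**Figure D4:**
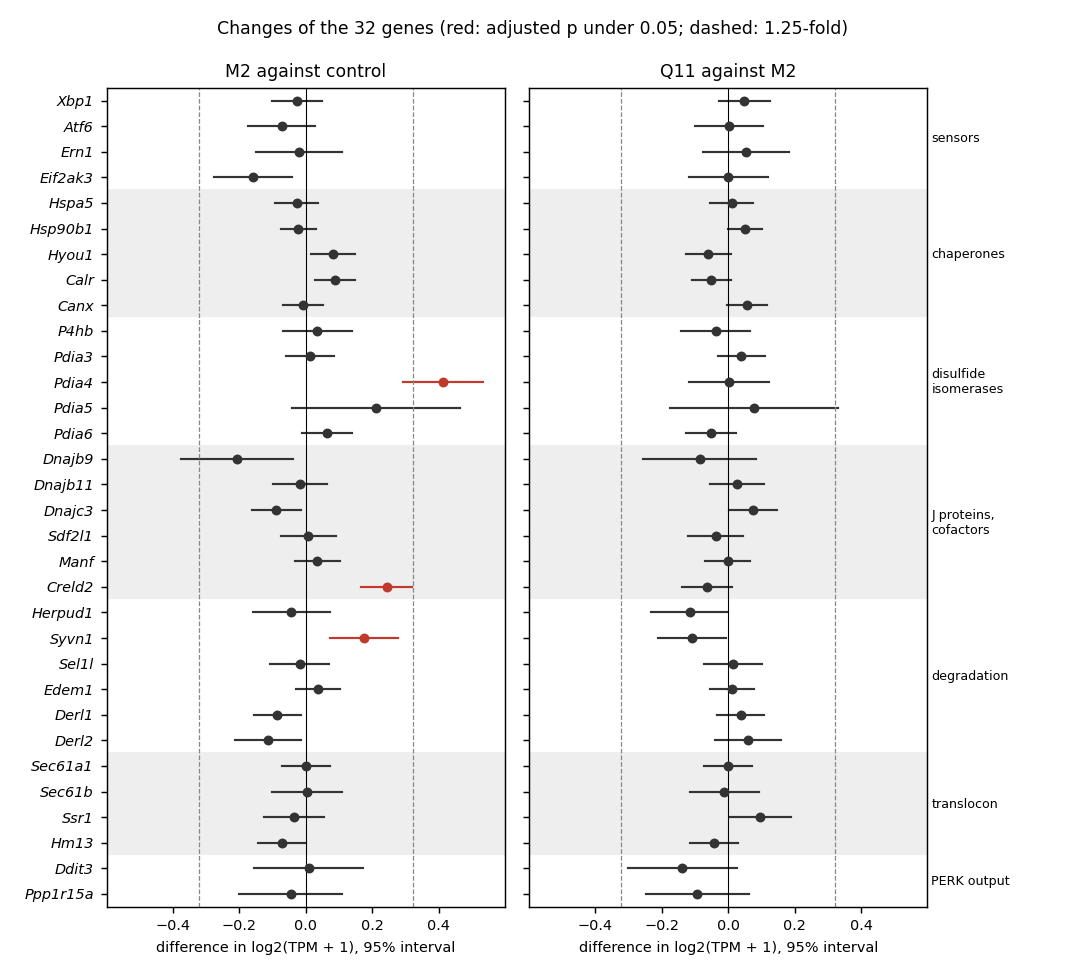
Difference of each of the 32 genes on the log2(TPM + 1) scale with its 95% interval, for M2 against control (left) and Q11 against M2 (right), with adjusted p under 0.05 in red and 1.25-fold marked by dashed lines. On the left Pdia4, Creld2 and Syvn1 are red, and on the right no gene is.

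The second comparison asked what Q11 added to the cytokines. None of the 32 genes was called, and none of the 14207 genes tested was (0%), by limma as deposited or with shared reads separated. limma-voom on the recovered reads called 2 genes in all, neither of them in the group. At an unadjusted p under 0.05 there were 4 of the 32 (12.5%), against 11.4% of all genes, and 1 (3.12%) against 8.11% with shared reads separated. For 31 of the 32 the interval lay within 1.25-fold either way (30 with shared reads separated, against 56.5% of all genes), while 57.4% of all genes did as deposited and 79.4% of those of at least 5 TPM. Pdia5 was the exception with the data as deposited. The comparison shares its M2 libraries with the first, so differences in the opposite direction are no independent evidence.

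The genes that moved with the cytokines had these values with Q11. Pdia4 differed by 0.00 (-0.12 to 0.12), which allows a change of 0.922- to 1.090-fold. Its M2 libraries spanned 509.6 to 602 TPM and its Q11 libraries 552 to 556 TPM, inside that span. Creld2 was at 314, 323 and 330.4 TPM with Q11, between control and the 2 higher M2 libraries, and differed from M2 by -0.06 (-0.14 to 0.01, adjusted p = 0.502). Syvn1 was at 58.5, 55.5 and 51.8 TPM with Q11, below all 3 M2 libraries, and differed by -0.11 (-0.21 to -0.01) with an adjusted p of 0.407. With shared reads separated, Q11 replicate 2 moved to 59.8 TPM, inside the M2 range, and the difference was -0.07 (adjusted p = 0.735).

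After Syvn1, the members with the smallest unadjusted p in this comparison were Ssr1 and Dnajc3. Ssr1 was at 77.6, 80.6 and 73.3 TPM in M2 and 81.7, 81.7 and 84.2 TPM in Q11 libraries, a difference of 0.10 (0.01 to 0.19, adjusted p = 0.409), and the groups overlapped once shared reads were separated. Dnajc3 was at 90.1, 95.7 and 93.0 TPM in M2 and 98.0, 99.2 and 96.4 TPM in Q11 libraries, a difference of 0.07 (0.00 to 0.15, adjusted p = 0.426). Its Q11 libraries lay within 96.4 to 99.2 TPM, a range that the control libraries also covered, and Q11 replicate 2 moved to 103 TPM with shared reads separated. Ddit3 was at 43.6, 41.6 and 43.0 TPM with Q11, below all M2 libraries, and the difference of -0.14 (-0.30 to 0.03) did not pass (adjusted p = 0.502). Hspa5 was at 1332, 1339 and 1354 TPM with Q11 and differed from M2 by 0.01 (-0.05 to 0.08).

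In all, 8 of the 32 genes (25%) had Q11 and M2 libraries that did not overlap, against 17.6% of all genes tested, and 5 (15.6%) against 12.7% with shared reads separated. Hsp90b1, Canx, Dnajc3 and Ssr1 were higher with Q11 (9.18% of all genes were), and Hyou1, Herpud1, Syvn1 and Ddit3 lower (8.43% of all genes). Ssr1, Herpud1 and Syvn1 overlapped once shared reads were separated.

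The third comparison set cells with cytokines and Q11 against untreated cells, and shares libraries with both others. Pdia4 and Creld2 were higher and Dnajb9 was lower, 3 of the 32 genes (9.38%), against 10.7% of all genes tested (5.19% higher, 5.53% lower). The same 3 were called with shared reads separated, against 7.98% of all genes. Pdia4 rose by 0.42 (0.30 to 0.54), or 1.337-fold, with limma's adjusted p = 0.00144, and was called in 19 of 19 alternatives. Creld2 rose by 0.18 (0.10 to 0.26), or 1.133-fold (adjusted p = 0.0108, and 0.0211 with shared reads separated), and was called in all alternatives but that without Q11 replicate 3 (0.0514).

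Dnajb9 was at 31.4, 29.3 and 29.5 TPM with Q11 against 34.9, 37.8 and 38.5 TPM in control, and every Q11 library lay below every control library. It fell by 0.29 on the log2 scale (interval of the difference -0.46 to -0.13), to 0.810 of control, with an adjusted p of 0.0379 (0.0458 with shared reads separated). The call held in 10 of 19 alternatives and was lost without any 1 control library (0.0501 to 0.116), without any 1 Q11 library (0.062 to 0.124), without M2 replicate 1 (0.0541) and when low genes were kept in the fit (0.0767). Its difference from M2 was -0.09 (-0.26 to 0.08, adjusted p = 0.681), so Q11 and M2 cells were not shown to differ in it. The Dnajb9 window held none of the motifs searched.

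The remaining 29 genes did not pass the test between Q11 and control. Hm13 came nearest, at 89.1, 89.2 and 87.2 TPM with Q11 against 96.9, 92.7 and 98.4 TPM in control, with no overlap. Its difference was -0.12 (-0.19 to -0.04), with limma's adjusted p = 0.0528, or 0.14 with shared reads separated. It was called in 5 of 19 alternatives, among them limma-voom on the recovered reads (adjusted p = 0.0181). The antisense gene Gm26841 covers 8.55% of its exon bases. Herpud1 was at 55.3, 59.6 and 57.3 TPM against 60.5, 65.8 and 66.6 TPM in control (-0.16, adjusted p = 0.0845), and Q11 replicate 2 moved to 62.4 TPM, inside the control range, with shared reads separated. Eif2ak3 was at 20.2, 20.9 and 21.2 TPM, below all control libraries as it was in M2 cells (-0.16, adjusted p = 0.0954). Syvn1 differed from control by 0.06 (adjusted p = 0.449). At an unadjusted p under 0.05 there were 7 of the 32 (21.9%), against 23.9% of all genes. For 29 of the 32 the interval lay within 1.25-fold either way, against 51.1% of all genes and 70.8% of those of at least 5 TPM, and for 28 with shared reads separated, against 49.7%. By overlap alone, 10 of the 32 (31.2%) stood apart, 4 higher and 6 lower, against 32.1% of all genes (16.3% higher, 15.8% lower), and 8 (25%) against 26.8% with shared reads separated.

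To place the group among other genes of the secretory pathway, 121 further ER genes in 7 lists were examined, of which 119 were tested. In M2 against control 6 rose and 10 fell, beside 6.88% of all genes tested higher and 5.75% lower, with a median difference of -0.04. With shared reads separated 5 of 118 rose and 8 fell, beside 9.34% of all genes in either direction. Of the called genes named below from these lists, Fkbp2 and Dnajb14 lost their calls in that fit (adjusted p = 0.0714 and 0.0507), Tusc3 was not tested in it, and the others were called at adjusted p-values up to 0.0486. None of the 13 further genes of stress signalling passed the test in M2 against control. In Q11 against control 1 of the 13 was called lower, beside 5.53% of all genes, and 0 with shared reads separated. Atf4, the factor translated when PERK is active, had means of 583 TPM in control and 602 TPM in M2 cells (adjusted p = 0.458), and Trib3 and Chac1, which it induces, had 124 and 133 TPM (0.296) and 41.1 and 42.3 TPM (0.822).

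Of 19 further genes in the list labelled luminal chaperones and cochaperones 2 rose and 4 fell, beside 6.88% of all genes tested higher and 5.75% lower. The label may not hold for each of the 19. Nucb2, a calcium-binding protein, fell from 91.02 ± 3.77 to 63.1 ± 0.702 TPM (SD, n = 3 each), a log2 difference of -0.52 with limma's adjusted p = 6.72e-05. Txndc12 (ERp18), a thioredoxin-like protein, went from 61.0 to 50.4 TPM (-0.27, adjusted p = 0.00119), and Fkbp11, a prolyl isomerase, from 9.77 to 12.1 TPM (0.28, adjusted p = 0.0256). The others called, named after their values were seen, were Dnajb14 and Dnajc10, lower, and Fkbp2, higher. Of 12 genes of disulfide formation 0 rose and 2 fell, beside the same shares of all genes. These were Ero1b, an oxidase that recharges the isomerases, from 21.8 to 16.9 TPM (-0.35, adjusted p = 0.0106), and Prdx4, an ER peroxiredoxin, from 133 to 117 TPM (-0.19, adjusted p = 0.0319). Ero1b and Prdx4 thus moved opposite to Pdia4, and the other genes of that list were not called.

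In the remaining lists the calls were few, and the same shares of all genes tested apply (6.88% higher, 5.75% lower). Of 15 genes of glycan transfer and the calnexin cycle, Mogs, the glucosidase that trims the first glucose, rose from 179 to 213 TPM (0.25, adjusted p = 0.00192), and Tusc3, a subunit of the glycan transferase, fell from 26.3 to 21.2 TPM (-0.30, adjusted p = 0.0339, not tested with shared reads separated). Of 20 genes of translocation, Srp68 of the signal recognition particle rose from 173 to 195 TPM (0.17, adjusted p = 0.00812). Of 21 further degradation genes, Ube2g2, a ubiquitin-conjugating enzyme, rose from 88.1 to 99.3 TPM (0.17, adjusted p = 0.0237), and 2 fell. These were Selenok, a selenoprotein of the ER membrane, from 96.8 to 76.2 TPM (-0.34, adjusted p = 0.00286), and Edem3, a relative of Edem1, from 37.0 to 31.8 TPM (-0.21, adjusted p = 0.0196). Of 19 genes of traffic between ER and Golgi, the cargo lectin Lman2 rose from 83.3 to 92.3 TPM (0.15, adjusted p = 0.00905), and the cargo receptor Tmed10 fell from 128 to 118 TPM (-0.12, adjusted p = 0.0192). In Q11 against M2 none of the 119 was called, with 17 at an unadjusted p under 0.05, beside 11.4% of all genes (10 of 118, beside 8.11%, with shared reads separated). In Q11 against control 3 rose and 9 fell, beside 5.19% and 5.53% of all genes, or 2 and 5 of 118, beside 7.98% in either direction, with shared reads separated.

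**Figure D5:**
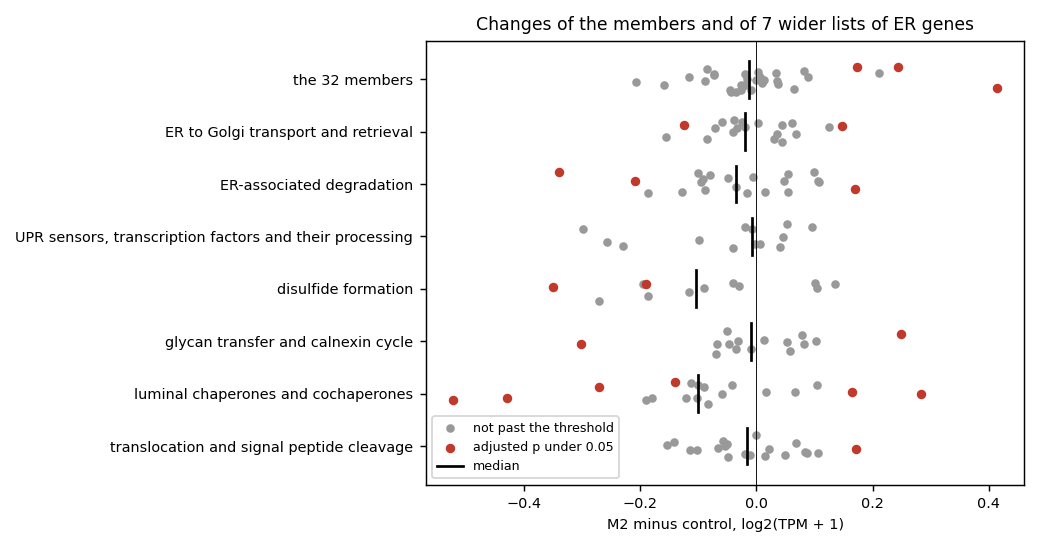
Differences between M2 and control on the log2(TPM + 1) scale for the 32 genes and for the 7 further lists of ER genes (1 point per gene, adjusted p under 0.05 in red, black bar at the list's median). Among the 32 genes the red points lie at 0.17, 0.24 and 0.41, and the lists labelled disulfide formation and luminal chaperones and cochaperones have medians of -0.10.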

How the data were processed

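Expression of 26157 genes in 9 libraries was deposited as TPM in 1 table by the authors. HISAT2 2.0.5, StringTie 1.3.3b and the build GRCm38 (mm10) are named per the submitters' processing notes, and poly-A selection with NEBNext Ultra library construction per the labels' protocols. The sources used here do not give the annotation release or the counting settings. Gene lengths and coordinates came from GENCODE M21, which gave a length for 25594 genes (97.85%). TPM hold no depth of their own. Multiplied by exon length they fell on whole multiples of a step particular to each library, and 98.8% to 99.1% of the values up to 20 reads were whole within a tolerance of 0.1. In the alternative with shared reads separated, Q11 replicate 2 had the Q11 replicate 3 reads taken off and new TPM computed, which left 14013 genes to test.

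The 14207 genes that reached 1 TPM in 3 or more libraries were tested as log2(TPM + 1) with limma 3.58.1 in R 4.3.3 (1 mean per group, all 9 libraries, eBayes with trend, two-sided, Benjamini-Hochberg over all genes, threshold 0.05). The fit has 6 residual degrees of freedom and a median of 2.85 prior ones. The limma fit of M2 against control was tested on simulated data, with planted changes larger than any called among the 32 genes. Read recovery, read separation, limma-voom and the motif search were not tested in that way. Motifs were searched on both strands of RefSeq promoter windows (GRCm38.p6). All 32 genes are given whatever their values. Of each further list, up to 3 genes with the largest change among those called, with a mean of at least 5 TPM, are named, and for Q11 against M2 the 3 members with the smallest unadjusted p. The members and lists were chosen with earlier results of these data known. Each comparison was repeated under 19 alternatives, of which the voom fit on separated reads and the separated fit without M2 replicate 3 were added after seeing the data. Tables and plots were made with pandas 2.3.3, numpy 2.4.6 and matplotlib 3.10.9 under Python 3.11.15.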

Additional observations from a re-analysis of the deposited data

How the results depend on the processing

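Over 19 alternatives for each of the 32 genes, no called difference changed sign. In M2 against control 591 of the differences per gene and alternative stayed on the same side of the threshold, 12 lost the call (all Syvn1) and 5 gained it (4 for Calr, 1 for Dnajb9). In Q11 against M2 all 608 stayed uncalled. In Q11 against control 591 stayed, 10 lost the call and 7 gained it (5 for Hm13, 1 for Herpud1, 1 for Pdia5). Differences that were never called changed sign in 12, 12 and 13 genes. Leaving out 1 library at a time gave 2 to 3 members higher and 0 to 1 lower in M2 against control, the 1 being Dnajb9 without M2 replicate 2, and 1 to 3 higher and 0 to 2 lower in Q11 against control. Members lower in Q11 against control numbered 0 with no filter on low values, 2 with a filter of 5 TPM, 2 with quantile normalization and 2 with limma-voom on recovered reads, against 1 in the fit as deposited. Genes called in M2 against control, 1794 in all, were 1139 to 1651 with 1 library left out, 1054 with only the 2 groups compared in the fit, and 857 after separation in a fit lacking M2 replicate 3. In Q11 against M2 they were 0, then 3 with no filter, 2 with limma-voom and 0 to 2 with 1 library left out. In Q11 against control they were 1524, and 776 to 1613 with 1 library left out, the lowest being 798 without Q11 replicate 2 and 776 without Q11 replicate 3. Deviations of libraries with the same replicate number correlated at -0.083 to 0.063, and those with different numbers at -0.111 to 0.099. These correlations run over all well-measured genes and include the shared reads of Q11 replicate 2. A weak batch, or one limited to few genes, would not show in them, so pairing by number was not excluded. With the replicate number as a block, members lower in Q11 against control went from 1 to 0 (Dnajb9, adjusted p = 0.0692) and Syvn1 in M2 against control had an adjusted p of 0.0868, while Pdia4 and Creld2 were called. Single genes near the threshold are limited by 3 libraries per group, and by Q11 replicates 2 and 3 sharing reads.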
